A study of Mus musculus with 10 samples.

Results

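The serpin family was followed, clade by clade, in the tissue under the lining of the mouse trachea, 4 days after the animals inhaled chlorine. Exposed mice had breathed 235 ppm of chlorine for 1 hr with the whole body in the gas, and unexposed mice had received no treatment. Each group held 5 male FVB/NJ mice aged 9 weeks. The tissue was taken by laser capture and combined over several sections of each mouse, and each mouse gave 1 microarray, and the precision is limited by how many arrays there were. Members were the genes whose symbol in the array's annotation begins with Serpin, a clade letter from a to i and a digit. There were 54 with a probe set of their own, among 22180 genes measured, namely 25 of clade B and 29 of the other clades (20 of clade A, 2 each of clades F and I, and 1 each of clades C, D, E, G and H). A further clade B symbol, Serpinb10, shared its probe set with Serpinb2 and was kept out of the comparison. A gene's value is its log2 intensity, and a change is the exposed mean minus the unexposed mean on that scale, so that 1 unit is a 2-fold difference.

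Serpins are proteins that mostly inhibit serine proteases, and some inhibit cysteine proteases. The protease cuts an exposed loop of the serpin, which then snaps into a new shape and traps the protease in a covalent complex, so that each inhibitor molecule is used once. Clade A holds secreted serpins such as the antitrypsins, many of them made in the liver, and clade B holds serpins that lack a classical signal peptide and act largely inside cells, many of them in epithelia and white blood cells. Other clades hold the inhibitors of clotting, of plasmin and of complement, and a few members, such as the collagen chaperone Serpinh1, inhibit no protease. Mice carry several close copies of some of these genes (the Serpina1, Serpina3, Serpinb3, Serpinb6 and Serpinb9 groups), whose single values are uncertain because array probes may not fully separate them.

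Most of the family, like most genes measured, showed little difference between the groups, and a few members accounted for the large changes. Of the 54 genes, 5 rose in exposed mice (limma, adjusted p under 0.05) and 2 fell, or 9.26% and 3.70%, while over all genes 5.85% were called higher and 4.97% lower. The median change of the 54 was -0.01, against -0.0035 over all genes. Of the 54, 47 changed by less than 0.5 in either direction, a share close to that of all genes (19437 of 22180). In clade B, 3 of 25 genes were called higher (Serpinb2, Serpinb5 and Serpinb3d) and 1 lower (Serpinb9c), or 12% and 4%, with a median change of 0.07. In the other clades, 2 of 29 were called higher (Serpina3n and Serping1) and 1 lower (Serpina9), or 6.90% and 3.45%, with a median change of -0.02. By at least 2-fold, 2 genes rose in clade B and 1 in the other clades, where 1 also fell, against 1.85% of all genes that rose and 1.57% that fell by as much. These counts rest on few genes, and whether the clades differ from each other or from all genes was not tested. Leaving out any 1 of exposed mice 2, 4 and 5 or of unexposed mice 1, 4 and 5 left 3 serpins called higher, namely Serpinb2, Serpinb5 and Serpina3n. Mean values lay below the median gene's value of 5.52 for 41 of the 54, and with no detection limit to hand the small changes of such dim genes are uncertain.

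**Figure D1:**
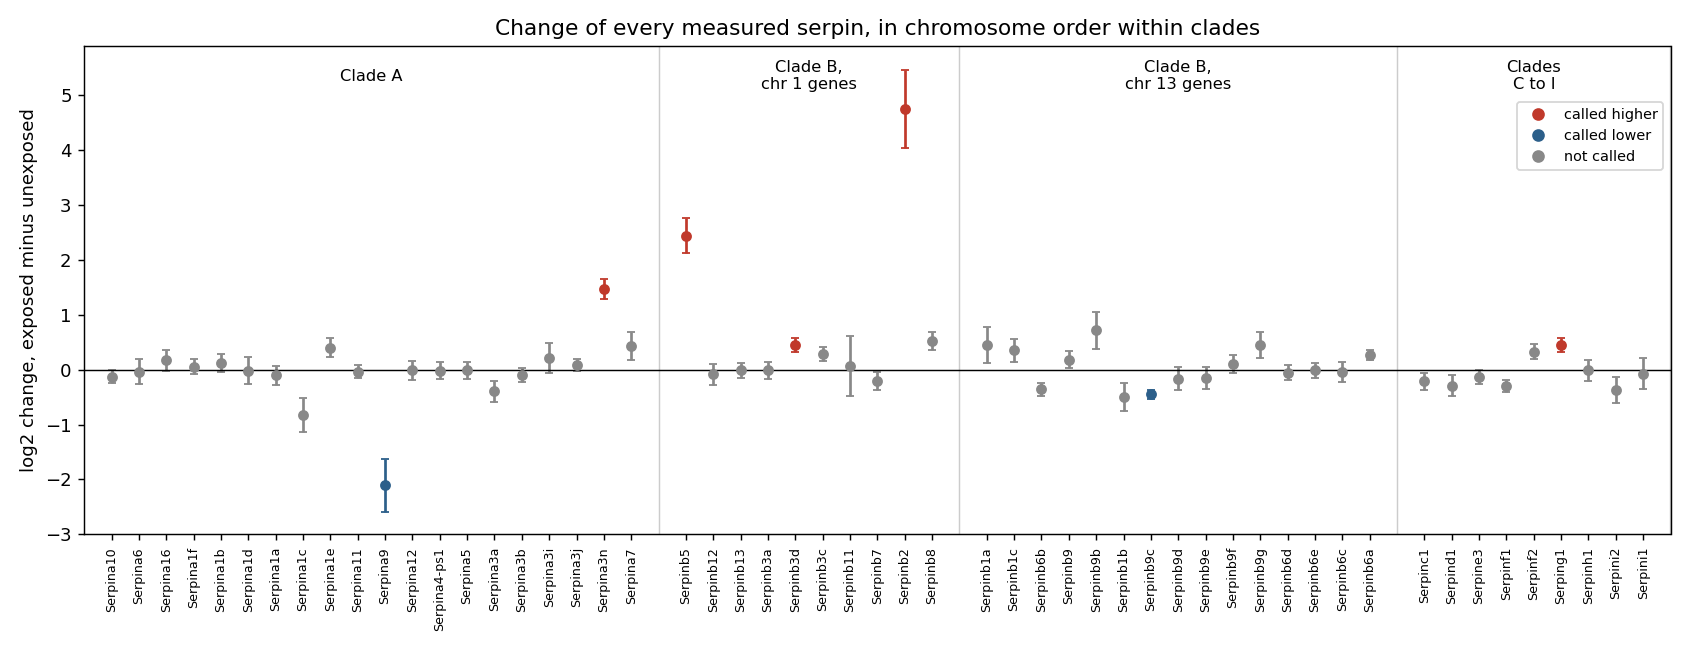
Log2 change (exposed minus unexposed, 5 mice each, bars show the standard error) of each of the 54 serpins, in chromosome order within clades. Serpinb2 (4.75), Serpinb5 (2.44), Serpina3n (1.48) and Serpina9 (-2.10) stand away from 0, and most grey points, the genes not called, lie near it.

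Serpinb2, which encodes plasminogen activator inhibitor type 2, an inhibitor of urokinase found in keratinocytes and macrophages, showed the largest change of the family. Its log2 intensity was 9.95, 9.89, 9.61, 10.49 and 9.59 in exposed mice 1 to 5, against 6.15, 7.88, 4.40, 3.92 and 3.43 in unexposed mice 1 to 5. The exposed mice lay within 0.90 of each other and all above the unexposed ones, which spread over 4.45 log2 units, a 21.8-fold range. The change was 4.75 (SE 0.70, adjusted p = 0.00141), which is 26.9-fold, and it was 43.1-fold without unexposed mouse 2, the unexposed mouse with the highest value. These values are of the probe set that names Serpinb2 alone. The probe set shared with Serpinb10 differed by 2.17, which was not tested, and there exposed mouse 3 (5.15) lay within the unexposed range.

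Serpinb5 encodes maspin, a protein of epithelial cells that is not known to trap a protease. It stood at 8.67, 8.97, 7.63, 9.41 and 8.73 in exposed mice, against 6.39, 6.93, 6.29, 5.84 and 5.73 in unexposed mice. The groups did not overlap, exposed mouse 3 being the lowest of its group. The change was 2.44 (SE 0.31, adjusted p = 0.000577), or 5.44-fold, and ranged from 2.26 to 2.71 when single mice were left out. Serpinb2 and Serpinb5 both lie in the clade B cluster of chromosome 1 (RefSeq, GRCm38.p6), with Serpinb5 at one end of the measured genes and Serpinb2 next to last at the other.

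The bases just before the transcription start of the genes that rose most are shown so that the sequence upstream of each can be read beside its change. They cover 250 bases before the start, from RefSeq's GRCm38.p6, at chr1:107511173-107511422 for Serpinb2 (the first of 2 listed starts), chr1:106860925-106861174 for Serpinb5 and chr12:104406458-104406707 for Serpina3n, each on the plus strand and written 5′ to 3′. Capitals mark the letters of 5 motifs searched on both strands, none of whose matches overlap here.
Serpinb2: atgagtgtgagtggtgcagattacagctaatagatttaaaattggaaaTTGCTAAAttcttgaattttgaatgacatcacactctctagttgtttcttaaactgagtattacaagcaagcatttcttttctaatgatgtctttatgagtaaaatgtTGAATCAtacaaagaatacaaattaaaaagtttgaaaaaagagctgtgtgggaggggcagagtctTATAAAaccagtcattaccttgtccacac
Serpinb5: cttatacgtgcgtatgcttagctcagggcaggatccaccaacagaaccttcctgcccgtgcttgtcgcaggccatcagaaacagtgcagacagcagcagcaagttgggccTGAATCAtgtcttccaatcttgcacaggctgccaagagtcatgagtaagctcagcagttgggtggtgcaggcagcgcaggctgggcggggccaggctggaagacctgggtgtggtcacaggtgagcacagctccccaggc
Serpina3n: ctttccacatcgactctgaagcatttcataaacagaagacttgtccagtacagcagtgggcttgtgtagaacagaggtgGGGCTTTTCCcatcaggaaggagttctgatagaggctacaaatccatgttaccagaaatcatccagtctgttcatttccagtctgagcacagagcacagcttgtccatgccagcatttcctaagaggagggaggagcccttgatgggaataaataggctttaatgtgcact
Serpinb2 holds TGAATCA, 94 bases before the start, which matches TGANTCA, the letters of the AP-1 motif, and Serpinb5 holds the same TGAATCA at 140 bases before its start. TGANTCA occurs in 6.75% of all 32851 such windows, and in a window of 10 of the 47 serpins with a listed window. These 10 include genes that were not called (Serpinb7, Serpinb8 and Serpinb11) and the close copies Serpina1a, Serpina1b, Serpina1c and Serpina1d. Here and below, a serpin with several windows counts if any matches, so counts of serpins and shares of windows are not alike measures. Serpinb2 also holds TATAAA, the TATA box, 29 bases before the start (12.4% of windows, 11 of 47 serpins) and TTGCTAAA, which matches TTGCNNAA, a C/EBP motif (9.56% of windows, 11 of 47 serpins). Serpina3n holds GGGCTTTTCC, which matches an NF-kappaB motif, searched as GGG, any 2 bases and TTTCC (1.41% of windows, 2 of 47 serpins). The letters TTCNNNGAA, a STAT motif, were found in 7.02% of windows and in 6 of 47 serpins. Serpinb2 is 1 of the 6, through TTCCAAGAA at 77 bases before its second listed start, which lies outside the stretch shown. A match is a description of the letters and says nothing of binding.

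Both other clade B calls were small and concerned dim genes. Serpinb3d, 1 of the mouse relatives of the human squamous cell carcinoma antigens, stood at 2.57, 2.84, 2.59, 2.98 and 3.12 in exposed mice and at 2.47, 2.36, 2.42, 2.48 and 2.14 in unexposed mice. Its change was 0.45 (SE 0.13, adjusted p = 0.043), and the call was lost in 8 of the 10 fits that left out a mouse, in each except those without exposed mouse 1 or exposed mouse 3 (adjusted p 0.024 to 0.100). Serpinb9c, a copy related to the granzyme B inhibitor Serpinb9, stood at 2.00, 1.94, 2.14, 2.13 and 2.20 in exposed mice and at 2.47, 2.58, 2.66, 2.41 and 2.54 in unexposed mice. Its change was -0.45 (SE 0.09, adjusted p = 0.0076), a 1.37-fold higher value in unexposed mice, and it kept its call in all 10 such fits.

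Among clade B genes not called, Serpinb8, an intracellular serpin whose human counterpart inhibits furin, came nearest. It stood at 6.56 to 6.77 in exposed mice and 5.63 to 6.54 in unexposed mice, with a change of 0.52 (SE 0.16, adjusted p = 0.0685), and it passed when unexposed mouse 2 was left out (0.61, adjusted p = 0.0449) and likewise unexposed mouse 3 (0.62, adjusted p = 0.036). Serpinb6a, whose human counterpart inhibits cathepsin G, was at 7.06 to 7.24 in exposed mice and 6.70 to 7.03 in unexposed mice, a change of 0.27 (SE 0.09, adjusted p = 0.0859). For both genes every exposed value lay above every unexposed one. Clade B held 5 genes of that kind and 1 with all exposed values below, against 5.89% and 5.06% of all genes.

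The clade B genes form a cluster on chromosome 1 and another on chromosome 13. Of 10 measured genes of the chromosome 1 cluster, 3 rose and 0 fell in the limma test, with a median change of 0.18. Over all genes, 5.85% were called higher and 4.97% lower. At an unadjusted limma p under 0.05 the cluster's counts were 5 and 0, where 12.4% of all genes were higher and 11.9% lower. The measured neighbours of the genes that changed most were not called, namely Serpinb12 (-0.08) beside Serpinb5, and Serpinb7 (-0.21) and Serpinb8 (0.52) on either side of Serpinb2. Serpinb12 and Serpinb7 were named after their values were seen. Of 15 genes of the chromosome 13 cluster, 0 rose and 1 fell (1 and 2 at an unadjusted p under 0.05, against the same 12.4% and 11.9% of all genes), with a median of -0.01 and changes from -0.50 to 0.72. The 3 copies of Serpinb1 measured were Serpinb1a (0.44), the neutrophil elastase inhibitor, Serpinb1c (0.35) and Serpinb1b (-0.50), also named after their values were seen, and none was called (adjusted p 0.272 to 0.46).

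In clade A, Serpina3n rose and Serpina9 fell, and the other 18 genes were not called. Serpina3n encodes a secreted relative of human antichymotrypsin that inhibits granzyme B and leukocyte elastase in mice. Its log2 intensity was 11.98, 11.73, 12.37, 12.04 and 12.09 in exposed mice, against 10.55, 11.05, 10.66, 9.96 and 10.63 in unexposed mice. Each exposed mouse lay above each unexposed mouse, and exposed mouse 3 was the highest. The change was 1.48 (SE 0.18, adjusted p = 0.000499), or 2.78-fold, and ranged from 1.32 to 1.60 when single mice were left out.

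Serpina9, known as centerin from its expression in human germinal centre B cells, stood at 7.06, 6.56, 4.49, 4.66 and 4.61 in exposed mice, against 7.78, 7.22, 7.26, 8.05 and 7.59 in unexposed mice. The exposed mice fell into a pair just below the unexposed range and 3 mice well below it. The change was -2.10 (SE 0.48, adjusted p = 0.0173), so that the gene was 4.30-fold higher in unexposed mice. It became -2.50 without exposed mouse 1, and the adjusted p ran from 0.00202 to 0.0466 over the 10 fits.

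The antitrypsin copies, relatives of the human inhibitor of neutrophil elastase, did not pass the test. Serpina1c was at 2.59 to 4.32 in exposed mice and 3.92 to 5.08 in unexposed mice (-0.83, SE 0.31, adjusted p = 0.117). Serpina1e changed by 0.40 (SE 0.17, adjusted p = 0.185) and Serpina1a by -0.10 (SE 0.17, adjusted p = 0.785). The 18 clade A genes not called had changes from -0.83 to 0.44, 4 of the 20 clade A genes passed an unadjusted p of 0.05, against 24.4% of all genes, and the values of 18 of the 20 averaged below the median gene.

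**Figure D2:**
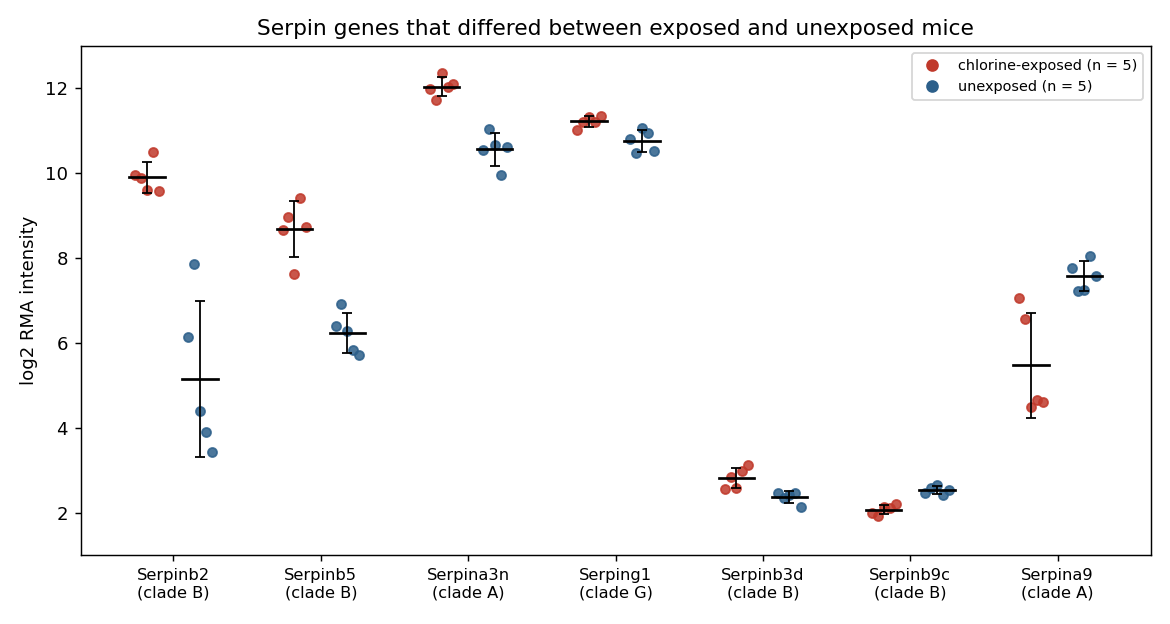
Log2 RMA intensity of the 7 serpins called at an adjusted p under 0.05 (5 exposed mice in red on the left of each pair, 5 unexposed mice in blue), with the mean and SD. Serpinb2 spreads from 3.43 to 7.88 in unexposed mice and from 9.59 to 10.49 in exposed mice, and the exposed values of Serpina9 split into 2 and 3 mice.

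Outside clades A and B, 1 of 9 genes was called, against 10.8% of all genes. Serping1, which encodes the C1 inhibitor that blocks the first complement proteases and plasma kallikrein, stood at 11.01, 11.22, 11.32, 11.21 and 11.34 in exposed mice. In unexposed mice it stood at 10.81, 10.47, 11.06, 10.96 and 10.53, so that the groups overlapped by exposed mouse 1 and unexposed mouse 3. Its change was 0.45 (SE 0.13, adjusted p = 0.0456), and the call was lost in 8 of the 10 fits that left out a mouse, all but the fits that lacked exposed mouse 1 or, in the unexposed group, mouse 3 (adjusted p 0.0302 to 0.102).

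Serpinh1 (HSP47), the chaperone that binds collagen triple helices in the endoplasmic reticulum, was at 8.21, 8.31, 8.72, 8.41 and 7.50 in exposed mice and at 8.18, 8.28, 8.41, 8.20 and 8.15 in unexposed mice. The exposed values lay on both sides of the unexposed ones, and the change was -0.01 (SE 0.19, adjusted p = 0.975), with 0.17 without exposed mouse 5. Of 21 other genes of collagen folding and of the fibrillar collagens it serves, 5 rose and 2 fell. Over all genes, 5.85% were called higher and 4.97% lower. The rises were led by P4ha3 (1.78), a subunit of a collagen prolyl hydroxylase, and Col5a2 (1.31), a chain of type V collagen. The list median was 0.28. The falls were P4ha1 (-0.61, adjusted p = 0.0495) and P4ha2 (-0.53, adjusted p = 0.0481), further prolyl hydroxylase subunits. With single mice left out, the call of P4ha1 was lost in 7 of 10 fits (adjusted p 0.042 to 0.112) and stood when exposed mouse 3, 4 or 5 was the one removed. That of P4ha2 was lost in 9 (adjusted p 0.00973 to 0.107) and stood when exposed mouse 3 was removed.

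Serpinf1 (PEDF), a secreted member that inhibits blood vessel growth and no protease, was at 7.54 to 7.91 in exposed mice and 7.82 to 8.13 in unexposed mice (-0.29, SE 0.11, adjusted p = 0.118). Serpinf2, the plasmin inhibitor antiplasmin, changed by 0.33 (SE 0.13, adjusted p = 0.132). The clotting inhibitors Serpinc1 (antithrombin) and Serpind1 (heparin cofactor II) changed by -0.21 (adjusted p = 0.456) and -0.30 (adjusted p = 0.388). Serpini1 (neuroserpin, an inhibitor of tissue plasminogen activator in neurons) changed by -0.07 (adjusted p = 0.916), Serpini2 by -0.37 (adjusted p = 0.373) and Serpine3, the 1 clade E gene analysed here, by -0.13 (adjusted p = 0.592). Markers of hepatocytes, which make many plasma serpins, had list means of 4.01 to 4.24 in exposed mice and 3.93 to 4.03 in unexposed mice. Of the 9 measured, 1 was called, a rise of 1.15, against 10.8% of all genes.

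Markers of several cell types also differed between the groups, where 5.85% of all genes were called higher and 4.97% lower. In such bulk tissue, fewer cells of a type and less RNA per cell cannot be told apart. The label of the tissue is mesenchyme, and list means of 12 fibroblast markers (9.62 to 10.24 in exposed mice, 9.20 to 9.55 in unexposed mice) stood beside those of 6 pan-epithelial markers (8.27 to 9.26 and 8.68 to 9.14), so that epithelial transcripts were present in both groups. Of 24 measured markers of basal and squamous epithelium, 17 rose and 0 fell in the limma test, led by Sprr1a (6.53) and Krt6a (5.32). Their mean was 8.42, 8.28, 6.65, 8.29 and 7.90 in exposed mice 1 to 5, and 5.94, 6.31, 5.95, 5.81 and 5.88 in unexposed mice 1 to 5. Unexposed mouse 2 had the highest mean of its group, as it had for Serpinb2 and Serpinb5, and exposed mouse 3 the lowest of its group, as it had for Serpinb5. That rank of unexposed mouse 2 was not particular to these genes. It was also highest of its group for Serpina3n (11.05), Serpinb1a (7.42), the cartilage mean (8.13) and the neutrophil mean (4.82). In exposed mouse 3 Serpinb2, at 9.61, lay within the range of the other exposed mice. Of 12 macrophage markers, 8 rose, led by Cd68 (1.79) and Mrc1 (1.41), and their mean was 7.77 to 8.36 in exposed mice and 7.11 to 7.55 in unexposed mice. Of 10 neutrophil markers, 3 rose and 0 fell in the limma test, each rise over 2-fold and led by S100a8 (2.43) and S100a9 (1.59). The mean of the 10 was 5.14 to 5.70 in exposed mice and 4.58 to 4.82 in unexposed mice. Of the 10, 1 marker changed by -1.45, with every exposed mouse below every unexposed one, and was not called. S100a9 missed the threshold when exposed mouse 2 or 4, or mouse 1 or 5 of the unexposed group, was removed (adjusted p 0.00454 to 0.0624). Of the 12 fibroblast markers, 4 rose and 0 fell in that test, led by Cthrc1 (2.26) and Col3a1 (1.04), the second of which is also in the collagen list. Exposed mouse 3 had the highest fibroblast mean (10.24), neutrophil mean (5.70) and Serpina3n value (12.37) of its group. These were not the only lists it led. It was also highest for the endothelial (7.83), smooth muscle (11.27), cartilage (7.88), mast cell (6.05) and platelet (7.04) means. The T and NK cell mean was highest in exposed mouse 4 (5.17). Exposed mouse 2 came next for the fibroblast and neutrophil means and had the highest macrophage mean (8.36). Its Serpina3n value (11.73) was nevertheless the lowest of the exposed mice. Of 10 cartilage markers, 2 fell and 0 rose in the limma test, and all 10 changes were negative (median -0.75). Platelet markers rose in 2 of 6 cases, both over 2-fold and by up to 5.05. Their mean was 6.19 to 7.04 in exposed mice and 5.18 to 5.63 in unexposed mice. Endothelial markers rose in 1 of 6 cases, while 1 of 9 T and NK cell markers fell. Of 6 smooth muscle and 8 mast cell markers, 0 were called. The part of any of these cell types in the rises of Serpinb2, Serpinb5 and Serpina3n was not tested. When each mouse's pan-epithelial mean entered the fit, the changes of Serpinb2, Serpinb5, Serpina3n and Serpina9 were 4.78, 2.47, 1.47 and -2.08. Without exposed mice 1 and 3 they were 4.84, 2.80, 1.39 and -2.30, and each was called in both fits. The pan-epithelial markers differed little between the groups (0 of 6 called, median change -0.01), so entering their mean could hardly alter these changes. The squamous, ciliated and secretory means were not entered.

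Serpina9 varied among exposed mice beside the ciliated markers and, less closely, the secretory markers. Of all genes, 4.97% were called lower and 5.85% higher. The mean of 11 ciliated markers, of which 6 fell and 0 rose in the limma test, was 8.14, 7.44, 4.47, 5.88 and 4.25 in exposed mice 1 to 5 and 8.45 to 9.01 in unexposed mice. The 3 exposed mice with the lowest Serpina9 also had the 3 lowest ciliated means, although mouse 3 was lowest for Serpina9 and mouse 5 for the markers. The mean of 12 secretory markers, of which 4 fell, was 9.83, 9.33, 5.09, 8.43 and 8.60 in exposed mice 1 to 5 and 10.21 to 10.43 in unexposed mice. For the secretory mean, exposed mice 4 and 5 lay nearer to mice 1 and 2 than to mouse 3, unlike for Serpina9. Exposed mice 1 and 2 had the highest values of their group for Serpina9 and for both means. The part of these markers' cell types in the fall of Serpina9 was not tested.

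Serpinb1a and Serpinb11 were low in exposed mouse 3 alone. Serpinb1a was at 7.78, 7.90, 5.99, 7.56 and 7.58 in exposed mice and 6.88, 7.42, 6.99, 6.77 and 6.52 in unexposed mice. It was not called (0.44, SE 0.33, adjusted p = 0.46), but without exposed mouse 3 it was (0.79, adjusted p = 0.0132). Serpinb11 was at 7.10, 6.39, 3.47, 6.08 and 6.14 in exposed mice and 5.99, 5.78, 5.71, 6.26 and 5.08 in unexposed mice (0.07, SE 0.55, adjusted p = 0.96), and without exposed mouse 3 its change was 0.66. Exposed mouse 3 was also the lowest of its group for the secretory mean (5.09, against 8.43 to 9.83 in the other exposed mice), the squamous mean (6.65, against 7.90 to 8.42) and the pan-epithelial mean (8.27, against 8.93 to 9.26). The part of these in either gene's value was not tested.

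**Figure D3:**
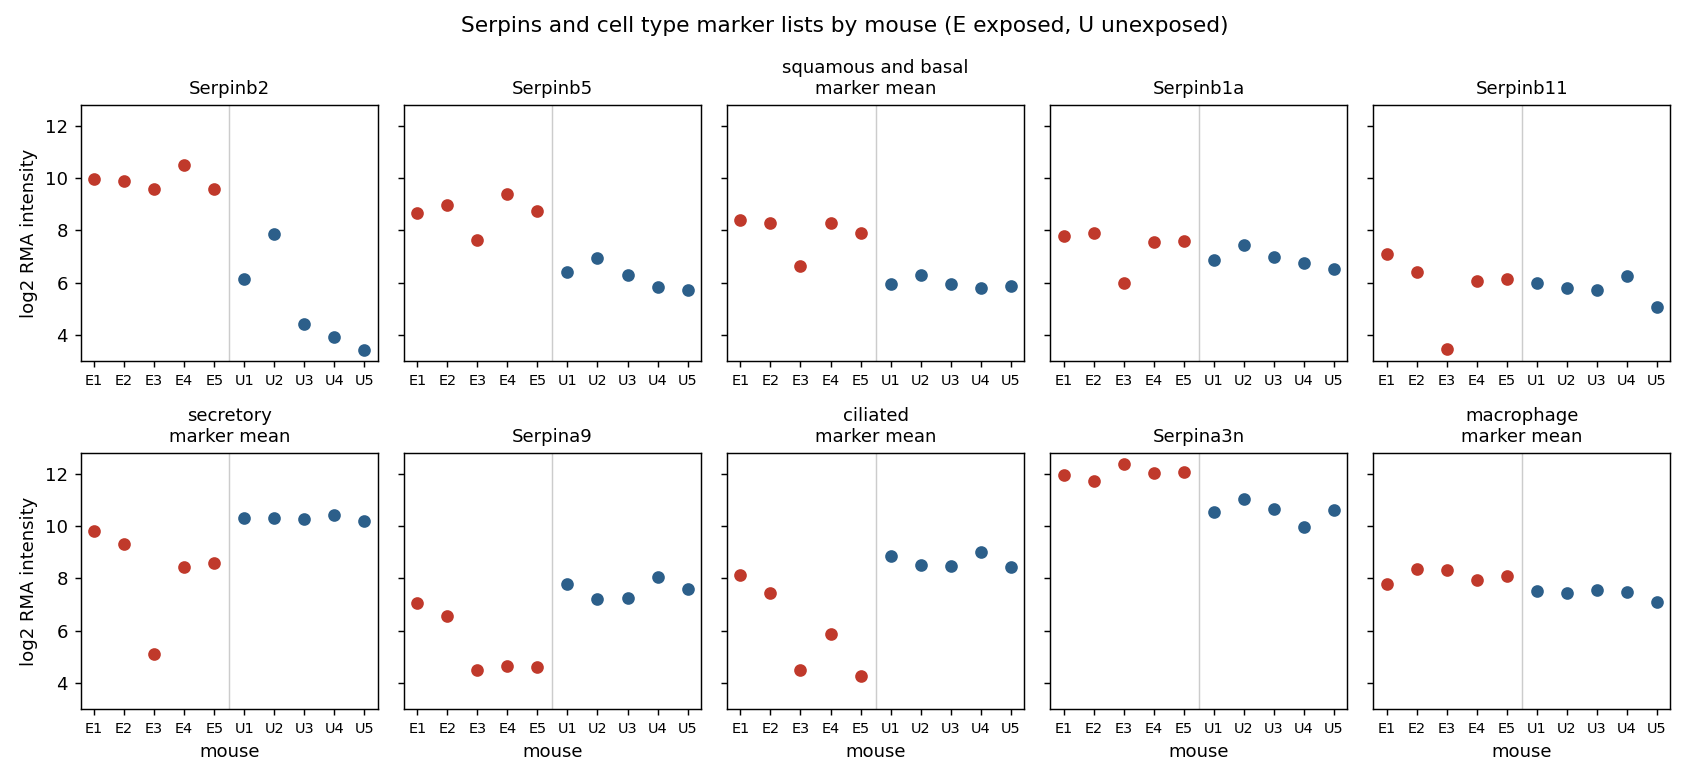
Log2 RMA intensity by mouse (E1 to E5 exposed in red, U1 to U5 unexposed in blue) of 6 serpins and of the mean of 4 marker lists. Exposed mouse 3 is low for Serpinb1a (5.99), Serpinb11 (3.47) and the secretory mean (5.09) but not for Serpinb2 (9.61) or Serpina3n (12.37), and Serpina9 is highest in exposed mice 1 and 2, which also have the highest ciliated and secretory means of their group.

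Genes of the protease systems that serpins act on changed in both directions. Over all genes, 5.85% were called higher and 4.97% lower. Of 23 genes of plasminogen activation and clotting, 5 rose and 1 fell, with a median change of 0.22. This list holds receptors, cofactors and fibrinogen chains besides proteases, so not all of its genes encode serpin targets. Plat and Plau, the tissue and urokinase plasminogen activators that Serpinb2 can inhibit, rose by 1.75 (adjusted p = 5.45e-05) and 0.82 (adjusted p = 0.0185), and F3, the tissue factor that starts clotting, fell by 1.63 (adjusted p = 0.00232). Plat was at 8.57 to 9.26 in exposed mice and 6.84 to 7.36 in unexposed mice. Of 37 further serine proteases, 7 rose and 3 fell, with a median of 0.09. The membrane proteases Tmprss11b (2.68) and Tmprss11g (1.96) led the rises, while Klk11 (-1.33) and Gzmm (-0.87), a granzyme of cytotoxic lymphocytes, led the falls. The call of Klk11 did not survive the removal of exposed mouse 4, nor that of mouse 1 or 4 of the unexposed group (adjusted p 0.00458 to 0.0559). Of 16 cathepsins and caspases, 8 rose and 1 fell, with a median of 0.47, led by Ctss (1.46) and Ctsc (1.14), lysosomal proteases of white blood cells, against Ctsh (-0.77).

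Protease inhibitors of other families were also measured beside the serpins. Of 40, 10 rose and 9 fell, against 5.85% and 4.97% of all genes, with a median change of 0.11. Timp1, an inhibitor of matrix metalloproteinases, was at 10.08 to 11.06 in exposed mice and 6.78 to 7.53 in unexposed mice, a 12.8-fold rise. Spink5, an inhibitor of epidermal kallikreins, was at 8.48, 8.23, 4.88, 8.12 and 8.35 in exposed mice and 3.99 to 5.69 in unexposed mice. Exposed mouse 3 lay within the unexposed range for Spink5, unlike for the probe set that names Serpinb2 alone. For the probe set shared by Serpinb2 and Serpinb10 it lay within the unexposed range too. The change of Spink5 was 2.94 (adjusted p = 0.0117), or 7.68-fold, and 12.3-fold without exposed mouse 3. A2ml1, a relative of alpha-2-macroglobulin, fell by 3.34 (adjusted p = 0.0146), or by 2.49 without exposed mouse 3.

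**Figure D4:**
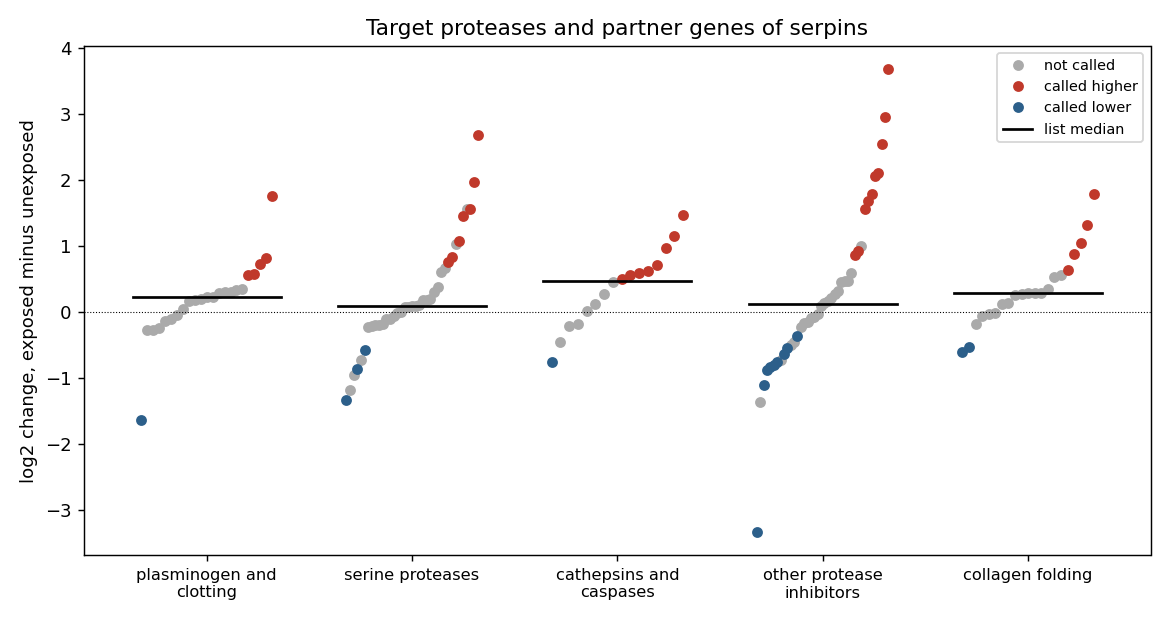
Log2 change (exposed minus unexposed, 5 mice each) of each gene of 5 lists of serpin targets and partners, sorted within a list, with the list median as a black line. Medians lie between 0.09 and 0.47, and the list of other protease inhibitors spreads furthest, from A2ml1 (-3.34) to Timp1 (3.67).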

How the data were processed

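The deposited table holds log2 intensities per probe set, for which the submitters' processing notes, per the labels, name RMA and Partek 6.6. That the scale is log2 was read from the values, and the settings of RMA are not stated there. Array medians were 5.10 to 5.18. Without scanner files no detection call was made for any gene. Of 41345 probe sets, 23521 had 1 symbol, 1814 several and 16010 were unnamed. Symbols were compared through gene identifiers with RefSeq (GRCm38.p6), and 0 changed. A gene's value was the mean of its single-symbol probe sets, which was 1 probe set for each serpin except Serpinb9b, which had 2.

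All 22180 genes were fitted with limma 3.58.1 in R 4.3.3 (lmFit, eBayes, two-sided, no covariate), with p adjusted by Benjamini-Hochberg over all genes and called under 0.05. The fit was tested on simulated data. Figures were drawn with matplotlib 3.10.9 in Python 3.11.15.

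The members, lists, motifs and tests were chosen with earlier results of these data known. Named serpins were those called, the 2 per clade with the smallest p among the others, and a set of known members, and partner genes were the largest called changes of each list, at most 2 a direction. Serpinb1a, Serpinb1b, Serpinb1c, Serpinb7, Serpinb9b, Serpinb11 and Serpinb12 were named after their values were seen. Of 288 list entries, 278 were measured. Promoter letters came from RefSeq, whose table lists 47 of the 54 serpins. Alternatives were another quantile normalization, median centring, a filter on dim genes, the brightest probe set, other eBayes settings, weights for arrays, a block for mouse numbers, single mice left out, exposed mice 1 and 3 left out, a pan-epithelial covariate (Epcam, Cdh1, Krt8, Krt18, Krt19 and Cldn7), an adjusted p under 0.01 and a fold of at least 2.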

Additional observations from a re-analysis of the deposited data

Results flagged for a closer look

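Among the named serpins, 54 groups of 5 mice were checked for a mouse that stood apart, by a rule that chance meets in about 1 of 20 groups, and 2 met it. Both were genes named after their values were seen, so that rate does not apply to them. Exposed mouse 3 stood apart for Serpinb1a, at 5.99, with the gap to the nearest mouse taking 0.824 of the group's range. It also stood apart for Serpinb11, at 3.47, with a gap of 0.718 of the range. The probe set that names both Serpinb10 and Serpinb2, which no comparison used, averaged 6.85 ± 1.05 in exposed mice and 4.69 ± 0.85 in unexposed mice (SD, n = 5 each), a difference of 2.17 that was not tested. Its values were 6.76, 7.29, 5.15, 7.12 and 7.96 in exposed mice and 5.06, 5.57, 5.25, 3.77 and 3.79 in unexposed mice, so that exposed mouse 3 lay within the unexposed range.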

How the results depend on the processing

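Serpinb2, Serpinb5 and Serpina3n kept their rise and Serpina9 its fall in each alternative fit, each at an adjusted p under 0.05. Serpinb9c kept its call in each fit that held it. The number of serpins called higher was 3 with the mouse number as a replicate block, at an adjusted p under 0.01 and at a fold of at least 2, and 3 to 5 with single mice left out. Of these, 1 lay outside clade B under those settings, with array weights and without exposed mice 1 and 3, and 1 to 2 with single mice left out. The number called lower was 1 with dim genes left out, a fit that kept 13 serpins, at an adjusted p under 0.01 and at a fold of at least 2. In clade B it was 0 with dim genes left out and at a fold of at least 2, and 2 without exposed mice 1 and 3, where Serpinb1b joined Serpinb9c (-0.80, adjusted p = 0.0436, and 0.0436 to 0.482 over its alternatives). Serpinb1a was called higher there (0.76, adjusted p = 0.0273). In the other clades it was 0 at an adjusted p under 0.01. The clade B median of 0.07 was 0.36 with dim genes left out, which leaves fewer genes, and 0.13 with array weights, where the cause was not tested. It was 0.034 without exposed mouse 2, 0.12 without unexposed mouse 4 and 0.13 without exposed mice 1 and 3. The other-clade median of -0.02 ran from -0.078 without exposed mouse 3 to 0.017 without exposed mouse 5, and was 0.00025 with median centring.

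With the block, Serpinb3d (adjusted p = 0.11) and Serping1 (adjusted p = 0.0804) lost their calls. Same-numbered mice deviated together with correlations of -0.05 to 0.12. Differently numbered mice were not compared, so these correlations cannot tell whether the numbers pair the mice. Serpinb3d also lost its call with quantile normalization (adjusted p = 0.0536) and with trend and robust settings (adjusted p = 0.0592), and Serping1 with array weights (adjusted p = 0.0588) and without exposed mice 1 and 3 (adjusted p = 0.0654). With dim genes left out, Serpinb8 (adjusted p = 0.0409) and Serpinb6a (adjusted p = 0.0337) were called. Near 0, Serpinh1 changed sign with median centring (0.0026). With single mice left out Serpinh1 ranged from -0.14 to 0.17, Serpina1a from -0.21 to 0.011, Serpini1 from -0.23 to 0.12, Serpinb12 from -0.25 to 0.016 and Serpinb11 from -0.25 to 0.66, and none was called. Serpinb12 was also above 0 without exposed mice 1 and 3 (0.082).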

Other observations

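Serpinb9b, a mouse relative of Serpinb9, has 2 probe sets that moved alike. They stood at 6.77 and 5.28 in exposed mouse 3 and at 6.43 and 5.02 in exposed mouse 4. In the other exposed mice they stood at 4.20 to 4.68 and 4.00 to 4.21, and in unexposed mice at 4.16 to 4.50 and 3.73 to 4.32. The gene, named after its values were seen, was not called (0.72, SE 0.34, adjusted p = 0.225). The probe set that names both 1110046J04Rik and Serpinb6a averaged 5.24 ± 0.18 in exposed mice and 5.24 ± 0.23 in unexposed mice (SD, n = 5 each).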
